A study of Mus musculus with 24 samples.

Results

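Ctf1, which encodes the cytokine cardiotrophin 1, and the cytokine system around the shared receptor gp130 were measured as 9 genes: 6 ligands (Ctf1, Lif, Il6, Il11, Osm and Clcf1) and 3 receptor subunits (Il6st, Lifr and Osmr). They were found by matching the RefSeq transcript of each probe to these symbols, which gave 15 probes for the 9 genes, out of 45547 gene names on the array. The genes were picked from measured values, because Ctf1 was already known to differ strongly between D and M in these arrays. The levels of Ctf1 in comparisons that use M or D are therefore given as a description, with no test.

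Total RNA of 7 mouse cell lines was hybridised to 24 one-colour whole-mouse arrays. M (B16F1-GFP-M, 3 arrays) is the parental melanoma line, and D (B16F1-GFP-D, 4 arrays) was recovered from immunised syngeneic mice after long dormancy. DB#1 (4 arrays), DB#2 (3) and DB#3 (3) are a second generation of dormant melanoma cells from a brain site. All 5 melanoma lines are B16F1 melanoma cells that carry green fluorescent protein, as their names (B16F1-GFP) say, and the dormant cells were amplified in culture before RNA was taken, so the arrays describe cells in DMEM with serum and not cells in the host. M0 (4 arrays) and J365 (3 arrays) are labelled as myeloid cells, and the labels tie neither to a named leukemia line. All myeloid titles carry the tag p20, which no melanoma title has. In M0 and in J365 the array whose title has no replicate number is called replicate 4 here. Nothing in the labels says whether arrays of one line came from separate cultures, so the p-values measure the spread between these arrays, which may be technical.

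The ligands measured here, cytokines of the interleukin 6 family, bind receptor complexes that all contain gp130, the product of Il6st. Cardiotrophin 1 and leukemia inhibitory factor act through gp130 paired with the LIF receptor (Lifr). Oncostatin M acts through gp130 paired with the oncostatin M receptor (Osmr). Interleukins 6 and 11 act through gp130 after binding a receptor subunit of their own. The complexes activate JAK kinases and STAT factors, above all STAT3, and SOCS proteins act as feedback inhibitors. In melanoma, members of the family are known as regulators of growth, with opposite effects described for early and late tumours.

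The values are log2 intensities less the 75th percentile of their array, so a probe at 0 is as bright as its array's 75th percentile and a difference of 1 is a doubling. A probe was read as present on an array where the scanner software marked it well above background, and values without that mark have no order among themselves. Each slide held all 7 lines. On 23 arrays 46.0% to 55.8% of spots were well above background, against 90.3% on D replicate 3, and D replicate 1 had the lowest share and the brightest negative controls (36.1, against 23.6 to 27.7 intensity units elsewhere). Melanoma markers (9 genes) averaged between 6.05 and 7.11 per melanoma array, whereas their average per myeloid array was between -4.64 and -4.33. Of these 9, Tyr, Mitf and Sox10 were above background on all 7 myeloid arrays, Pmel on 3 and the other 5 on 0. Myeloid markers (10 genes) averaged between -0.08 and 0.58 per myeloid array, -1.69 on D replicate 3 and between -3.96 and -3.31 elsewhere in melanoma cells. Of these 10, Itgam, Csf1r and Fcer1g were above background on all 17 melanoma arrays and Csf2rb on 15. The other 6 were on 0 to 3, with the leukocyte marker Ptprc on 0. On the 7 myeloid arrays Cd33 was above background on 0, Lyz2 on 3 and the rest on all 7.

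Ctf1 was at background in M and bright in D, DB#1 and DB#3, with DB#2 dim and in between. Its single probe (transcript NM_007795) read -6.43, -6.32 and -6.46 in M, on 0 of 3 arrays above background. In D it read -0.87, -0.87, -0.31 and -0.65. In DB#1 the values were -0.44, -0.71, -0.78 and -0.65, and in DB#3 they were -0.38, -0.59 and -0.81. D, DB#1 and DB#3 overlapped one another, and all of their arrays lay above M. In DB#2 Ctf1 read -3.56, -3.49 and -4.10, above background on all 3 arrays, below every array of the other dormant lines and above every array of M. Both myeloid lines had Ctf1 as well, at -0.25, -0.22, -0.45 and -0.35 in M0 and 0.08, -0.01 and 0.02 in J365. The J365 arrays all lay above the M0 arrays, while M0 overlapped DB#3.

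Ordered by mean, Ctf1 was highest in J365 (0.03 ± 0.05, SD, n = 3), then M0 (-0.32 ± 0.11, n = 4), DB#3 (-0.59 ± 0.22, n = 3), DB#1 (-0.64 ± 0.15, n = 4) and D (-0.67 ± 0.26, n = 4). DB#2 (-3.72 ± 0.33, n = 3) and M (-6.41 ± 0.07, n = 3) closed the order. Neighbours from M0 to D overlapped, and J365, DB#2 and M each stood clear of the next line. Because M gave no reading above background, its level is a bound: per array, the higher of the probe's own signal and the lowest signal of any probe well above background. Against that bound Ctf1 was at least 12.3-fold higher in D, at least 12.5-fold in DB#1, at least 13.0-fold in DB#3 and at least 1.49-fold in DB#2. As measured, the difference of D from M was 5.73 on the log2 scale, between 5.60 and 6.02 on the 3 slides. In M0 Ctf1 was at least 15.7-fold above M.

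**Figure D1:**
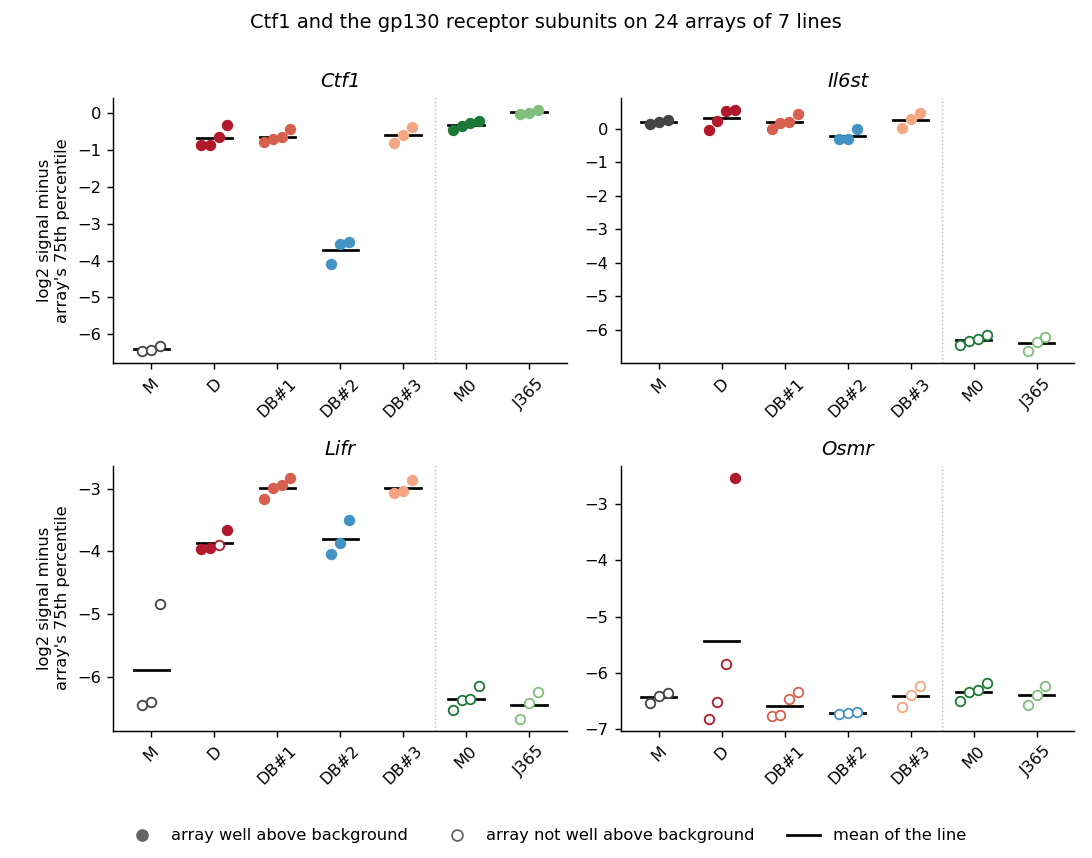
Normalized log2 signal (intensity less the array's 75th percentile) of Ctf1 and the receptor subunits Il6st, Lifr and Osmr, by line. Each point is 1 array, filled where the probe was well above background and open where it was not, and bars are means of the 3 or 4 arrays. Ctf1 was open on all 3 M arrays and filled on the other 21, with DB#2 at -4.10 to -3.49. Il6st was filled on all 17 melanoma arrays and open on all 7 myeloid arrays, Lifr was filled in 3 of 4 D arrays and in all DB arrays, and Osmr was filled on 1 array.

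Ctf1 was picked for its difference between D and M, and it was tested among the DB lines. Earlier results of these arrays were known when the genes were chosen, so these p-values are read as a description. It fell by 3.07 ± 0.16 (SE) on the log2 scale in DB#2 against DB#1 (limma, adjusted p 1.31e-10) and by 3.12 ± 0.17 against DB#3 (limma, adjusted p 2.24e-10), an 8.41-fold and 8.70-fold lower signal. With normexp background correction both differences were smaller (-1.79 and -1.80) and still called. On single slides the difference of DB#2 from DB#1 ran from -3.42 to -2.71. DB#3 differed from DB#1 by 0.05 with a 95% interval of -0.29 to 0.38 (limma, adjusted p 1). With Ctf1 among them, 1 of 4 members tested was called in DB#2 against DB#1, where 5.47% of all genes tested were called. The same held for 1 of 4 in DB#2 against DB#3 (4.44% of all genes) and for 0 of 3 in DB#3 against DB#1 (0.229%). In the myeloid lines Ctf1 was 0.35 ± 0.16 higher in J365 than in M0, higher on all 3 slides, and did not pass the adjustment (limma, adjusted p 0.551, 95% interval 0.01 to 0.68).

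The bases just before the start of Ctf1 are shown because its signal was at background in M and bright in D, DB#1 and DB#3. They are the 250 bases before the RefSeq start, chr7:127712453-127712702 on the plus strand of GRCm38.p6, 54.8% of them G or C. Capitals mark the motifs found.
Ctf1: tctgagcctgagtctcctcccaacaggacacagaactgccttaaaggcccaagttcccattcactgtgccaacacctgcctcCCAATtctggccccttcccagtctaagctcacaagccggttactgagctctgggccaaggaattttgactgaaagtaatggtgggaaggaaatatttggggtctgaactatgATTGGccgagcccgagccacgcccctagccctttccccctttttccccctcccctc
Searched on both strands were TTCNNNGAA (the STAT motif), TGANTCA (AP-1), TGACGTCA (CRE), CACGTG and CATGTG (E-boxes), GGGCGG (GC box) and CCAAT. No match of one motif overlapped a match of another here. The Ctf1 window held CCAAT at 168 bases and, on the other strand, at 56 bases before the start. Of 32851 mouse windows of this length, 33.8% hold CCAAT, and the STAT letters, absent here, are in 7.02%. RefSeq windows were on hand for 7 of the 9 members, and Osm and Clcf1 had no entry.

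The genes next to Ctf1 on chromosome 7 differed by -0.52 to 0.79 on the log2 scale from M in the dormant lines, where they could be tested. Ctf2, its neighbour, which encodes the related cytokine neuropoietin, was low everywhere, with means from -4.09 in M0 to -2.64 in DB#2, and passed in none of the comparisons of DB#2 and DB#3 in which limma tested it (adjusted p 0.514 to 1). Bcl7c, on the other side, differed between the dormant lines and M by 0.38 to 0.49 on the log2 scale, and Rnf40 by 0.00 to 0.17 in size. Of the 10 nearest measured genes, 5 on each side, 1 was called against M, where 2.76% to 3.69% of all genes were called per comparison. This was Orai3, a calcium channel subunit, lower in D (-0.52 on the log2 scale, named after its values were seen). Ctf2 and Ccdc189 could not be tested in all 4 comparisons.

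The genes most like Ctf1 were ranked by Pearson's r of the normalized log2 signal, over 14315 genes, as a description over arrays that share lines and slides. Over all 24 arrays they were Bcar3 (r = 0.95), BC028528 (0.95), Bin1 (0.88), Tlr12 (0.86) and Rcn3 (0.86). Bcar3 was open in M (-6.49) and read -2.26 in D, -1.78 in DB#1, -3.67 in DB#2, -2.47 in DB#3, -1.69 in M0 and -2.07 in J365. It thus had the same order of M, DB#2 and the other dormant lines as Ctf1. Over the 17 melanoma arrays alone the list was Cgnl1 (0.97), Col4a1 (0.96), Crmp1 (0.96), Bcar3 (0.96) and Dhdh (0.95). Col4a1, a chain of basement membrane collagen, read -0.87 in DB#1 and -4.97 in DB#2, not above background on the DB#2 arrays. Lifr stood at rank 75 with r = 0.85 over the melanoma arrays, and at rank 6075 over all arrays.

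Of the other ligands, Il6, Osm and Lif were bright in both myeloid lines and at background on nearly all melanoma arrays. Il6, an inflammatory cytokine, read 2.84, 2.72, 2.62 and 2.48 in M0 and 2.04, 1.99 and 2.54 in J365. It was above background on 0 of 17 melanoma arrays. As a bound, Il6 was at least 124-fold higher in M0 than in M. The measured difference of M from M0 was -9.07 on the log2 scale (limma, adjusted p 7.9e-19). Il6 entered that test by being bright in M0. A second Il6 probe had the same pattern, at 1.63 in M0 and 1.16 in J365. Its means in the melanoma lines were -6.50 to -5.98. J365 had less Il6 than M0 by 0.48 ± 0.21 on the log2 scale, a difference that did not pass the adjustment (limma, adjusted p 0.51). Replicate 4 of J365, at 2.54, lay among the M0 arrays.

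Osm, which encodes oncostatin M, was bright in both myeloid lines. Its brighter probe read 5.56, 5.24, 5.11 and 3.86 in M0 and 5.46, 5.36 and 5.06 in J365. The myeloid lines overlapped, with replicate 4 of M0 lowest. The measured difference of M from M0 was -11.50 on the log2 scale (limma, adjusted p 1.22e-10), in a test that Osm entered by being bright in M0. As a bound, Osm was at least 601-fold higher in M0 than in M. Among melanoma arrays it was above background on D replicate 1 (-2.00) and D replicate 3 (-2.40) and on no other, and the remaining D arrays read -6.56 and -6.77. A second Osm probe was above background on all 7 myeloid arrays, with means of -1.02 in M0 and -0.52 in J365, a smaller difference of M from M0 (-5.40, against -11.50 for the first). In melanoma cells it was above background on D replicate 3 alone (-3.89), and not on D replicate 1 (-5.08). D replicate 1 is the array with the brightest negative controls. D replicate 3 is the one with the highest share of spots above background, 90.3%. On it 9 of 10 myeloid markers were above background (against 3 to 5 on the other melanoma arrays), near that share of all spots. Of the other lists, 5 of 6 fibroblast, 4 of 5 neuron and 4 of 5 astrocyte markers were above background there. So were 3 of 4 microglia and 2 of 4 endothelial markers. The part of these in the Osm readings was not tested.

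Lif, the ligand after which Lifr is named, read -0.83, -1.05, -0.88 and -2.02 in M0 and -0.91, -0.93 and -1.44 in J365. The 2 myeloid lines overlapped here too. The measured difference of M from M0 was -5.26 on the log2 scale (limma, adjusted p 2.01e-06), in a test that Lif entered by being bright in M0. As a bound, Lif was at least 8.56-fold higher in M0 than in M. In melanoma cells it was above background on D replicate 3 alone, at -1.74, against -6.86 to -5.73 on the other D arrays. Lif and Osm lie next to each other on chromosome 11.

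Il11 and Clcf1 were dim in all lines. Il11 was marked above background on 12 melanoma and 5 myeloid arrays, with line means between -4.23 in DB#3 and -3.47 in D, and every neighbour in that order overlapped. The highest single Il11 reading was -1.78 on D replicate 1. Il11 was called in 0 of the 5 comparisons in which it could be tested, so a change in it was not detectable at this signal. Clcf1, a ligand that signals through the CNTF receptor, was above background on D replicates 1 and 3 (-2.61 and -2.37) and on 3 myeloid arrays, and met the filter in 0 comparisons.

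**Figure D2:**
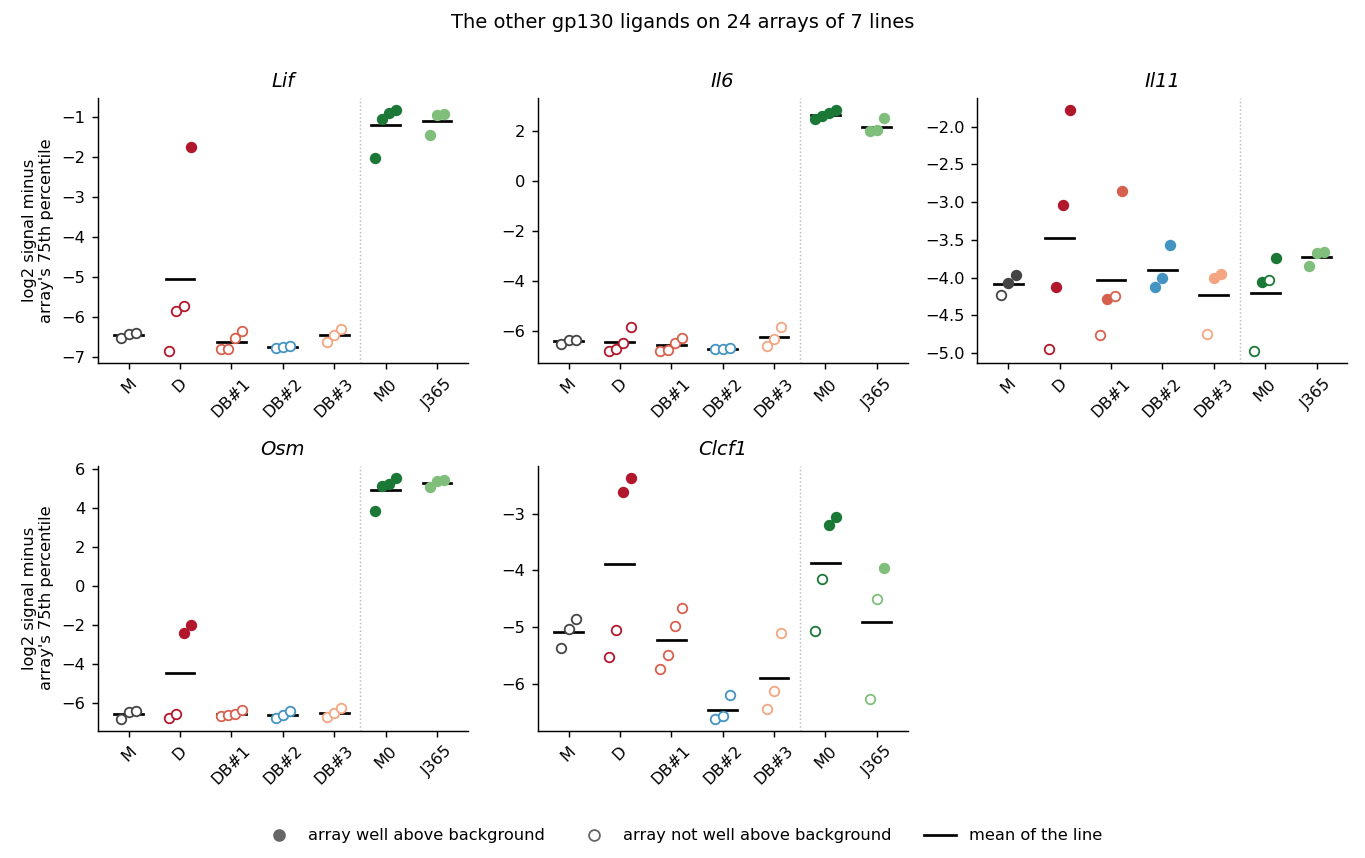
Normalized log2 signal (intensity less the array's 75th percentile) of the ligands Lif, Il6, Il11, Osm and Clcf1, by line, with 1 point per array, filled where well above background, and bars for means of 3 or 4 arrays. Lif, Il6 and Osm are filled on all 7 myeloid arrays. In the melanoma lines Il6 is open on all 17 arrays, and the filled points of Lif, Osm and Clcf1 belong to D replicates 1 and 3.

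Il6st, which encodes gp130 itself, was the reverse of these ligands. It read 0.14, 0.25 and 0.22 in M, and -0.31 to 0.56 over the 17 melanoma arrays, all above background. On the 7 myeloid arrays it read -6.64 to -6.17 and was above background on 0, so in the myeloid lines Il6, Osm and Lif were read while Il6st was not. The measured difference of M from M0 was 6.51 on the log2 scale (limma, adjusted p 2.02e-18), in a test that Il6st entered by being bright in M. As a bound, M exceeded M0 at least 19.6-fold. A second Il6st probe was likewise above background on all 17 melanoma arrays and on none of the 7 myeloid arrays, with means of -3.13 to -1.96 in melanoma lines. In total RNA of a culture, fewer expressing cells and less RNA per cell cannot be told apart, here or for the other members.

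Between melanoma lines Il6st differed little, with means of 0.33 ± 0.28 (SD) in D, 0.27 ± 0.23 in DB#3, 0.21 ± 0.19 in DB#1, 0.20 ± 0.06 in M and -0.20 ± 0.18 in DB#2. The difference from M was 0.13 in D (limma, 95% interval -0.21 to 0.46, adjusted p 0.904), 0.01 in DB#1 (-0.33 to 0.34, adjusted p 0.999) and 0.06 in DB#3 (-0.29 to 0.42, adjusted p 1). The signs of these 3 differences turned when the mean of both Il6st probes was used. DB#2 was lowest: its arrays read -0.30, 0.00 and -0.31, below every array of M, DB#1 and DB#3, and D replicate 3 (-0.02) alone of D lay among them. It differed from D by -0.53 ± 0.16 (SE; limma, adjusted p 0.0529), from M by -0.41 ± 0.17 (adjusted p 0.307), from DB#1 by -0.41 ± 0.16 (adjusted p 0.171) and from DB#3 by -0.47 ± 0.17 (adjusted p 0.156). None of these passed. With the mean of both probes DB#2 passed against M (-0.79, adjusted p 0.00678), D (-0.67, adjusted p 0.0102) and DB#3 (-0.71, adjusted p 0.0137) and not against DB#1. With slide as a block, 3 of them did, at -0.49 against D (adjusted p 0.00754), -0.43 against DB#1 (0.0188) and -0.47 against DB#3 (0.0192).

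Lifr, the partner of gp130 for cardiotrophin 1 and LIF, was read in the dormant lines and not in M. Of its 3 probes the brightest (transcript NM_013584) read -6.40, -6.45 and -4.84 in M, none above background. In D it read -3.89, -3.95, -3.66 and -3.96, above background on 3 of 4 arrays. It read -3.17, -2.93, -2.82 and -2.99 in DB#1, -3.87, -3.50 and -4.04 in DB#2, and -3.03, -3.07 and -2.85 in DB#3, above background on all of them. Every dormant array lay above every M array, and every DB#1 and DB#3 array above every D and DB#2 array. On the myeloid arrays Lifr read -6.67 to -6.15, with 0 above background.

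Against M, Lifr rose by 2.92 ± 0.26 (SE) on the log2 scale in DB#1 (limma, adjusted p 1.98e-07), by 2.09 ± 0.28 in DB#2 (adjusted p 5.63e-05) and by 2.91 ± 0.28 in DB#3 (adjusted p 6.71e-07). As bounds, its signal was at least 2.49-fold, 1.40-fold and 2.47-fold higher. It entered these tests through the DB lines, where it was bright enough to pass the filter. With replicate 1 of D below the mark, D against M was not tested; the difference was 2.03, from 0.92 to 2.78 on single slides, and it passed where no filter was applied (limma, adjusted p 0.00026). With normexp background correction the differences of DB#1 and DB#3 shrank to 0.63 (adjusted p 0.0197) and 0.66 (adjusted p 0.0295), and with the mean of the 3 probes to 1.98 and 2.05. The call in DB#2 did not hold with normexp background correction (0.25, adjusted p 0.59), with the mean of the 3 probes (1.20, adjusted p 0.135) or with only the arrays of the 2 lines (adjusted p 0.0814).

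A second probe of the same Lifr transcript gave means of -5.95 in M, -3.86 in D, -3.29 in DB#1, -4.21 in DB#2 and -3.44 in DB#3. By mean, DB#1 and DB#3 were again above D and DB#2, with M lowest. Single arrays were less clear with this probe, as D spread from -5.65 to -2.50. It thus overlapped M (-6.36 to -5.25), DB#1 (-3.67 to -2.92) and DB#3 (-3.66 to -3.15). The probe for the other transcript, NM_001113386, was above background on 2 arrays, D replicate 3 and DB#3 replicate 5. Between the dormant lines Lifr was 0.89 ± 0.24 higher in DB#1 than in D (limma, adjusted p 0.205) and 0.88 ± 0.26 higher in DB#3 than in D (adjusted p 0.302). It was 0.83 ± 0.26 lower in DB#2 than in DB#1 (adjusted p 0.0791) and 0.82 ± 0.28 lower than in DB#3 (adjusted p 0.123). All 4 passed when M replicate 3, the brighter M array, was left out of the shared estimate of spread (adjusted p 0.00189, 0.00568, 0.00147 and 0.003, in that order). With slide as a block DB#1 against D passed (0.98, adjusted p 0.0371), as did DB#2 against DB#1 (adjusted p 0.0224) and against DB#3 (adjusted p 0.0441).

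The windows before both RefSeq starts of Lifr are shown next to that of Ctf1 because both genes were unread in M and read in all dormant lines. They lie at chr15:7129322-7129571 and chr15:7140292-7140541, plus strand, GRCm38.p6.
Lifr, first start: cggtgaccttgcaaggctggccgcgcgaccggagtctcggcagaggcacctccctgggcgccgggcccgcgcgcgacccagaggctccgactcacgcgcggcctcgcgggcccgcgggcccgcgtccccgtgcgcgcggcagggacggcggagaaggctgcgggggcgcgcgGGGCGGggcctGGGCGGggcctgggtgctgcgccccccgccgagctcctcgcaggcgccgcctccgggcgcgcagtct
Lifr, second start: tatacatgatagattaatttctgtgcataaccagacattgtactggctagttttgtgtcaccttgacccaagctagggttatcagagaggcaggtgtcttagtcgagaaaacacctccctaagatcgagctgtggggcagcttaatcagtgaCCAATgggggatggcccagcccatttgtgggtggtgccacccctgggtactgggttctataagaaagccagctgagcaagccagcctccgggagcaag
The first window is 82.4% G or C and holds GGGCGG at 78 and 67 bases before the start, a motif found in 32.7% of all windows. The second is 50.8% G or C and holds CCAAT at 98 bases before the start. CCAAT, held by 33.8% of all windows, is the one motif searched that the Ctf1 window and the second Lifr window have in common. It is absent from the first Lifr window and present in windows of Il6, Il11 and Il6st.

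Osmr, a receptor subunit for oncostatin M, was above background on a single array of 24, D replicate 3 at -2.53, while the other D arrays read -6.81 to -5.85. A second Osmr probe was above background on 0 arrays. D replicate 3 was also the array with the highest share of all spots above background, 90.3%. On it 9 of 10 myeloid, 5 of 6 fibroblast, 4 of 5 neuron and 4 of 5 astrocyte markers were above background. So were 3 of 4 microglia and 2 of 4 endothelial markers. The fibroblast markers averaged -3.48 there, against -5.86 to -4.93 on the other melanoma arrays. The part of those levels in the Osmr reading was not tested.

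**Figure D3:**
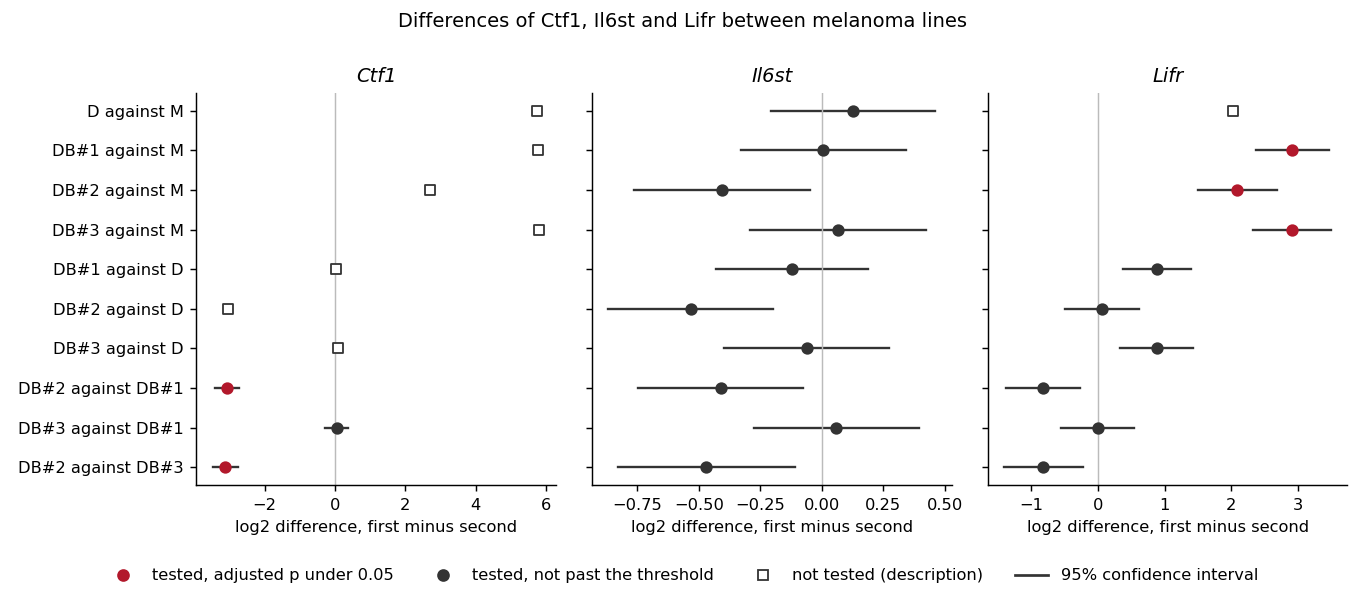
Log2 differences of Ctf1, Il6st and Lifr between melanoma lines, first line minus second. Circles are limma estimates with 95% intervals (red where the adjusted p is under 0.05), and open squares are differences with no test, for Ctf1 where M or D is used and for Lifr in D against M. Ctf1 in DB#2 lay 3.07 and 3.12 below DB#1 and DB#3, Lifr lay 2.09 to 2.92 above M in the DB lines, and the Il6st differences all lay between -0.53 and 0.13.

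Over the 8 members other than Ctf1, the calls in D and the DB lines against M were those of Lifr. In D against M 0 of 1 member tested was called (2.96% of all genes tested were). In DB#1 it was 1 of 2 (3.69% of all genes), in DB#2 1 of 3 (3.44%) and in DB#3 1 of 2 (2.76%). Against D, 0 of 2 members were called in DB#1 (0.475% of all genes), 0 of 3 in DB#2 (6.34%) and 0 of 2 in DB#3 (0.369%), although limma gave 3 of these 7 an unadjusted p under 0.05. Lifr entered the tests against M by being bright in the DB lines, so its calls give these counts no weight against the shares of all genes. Most members could not be tested in these comparisons, because they were read on too few melanoma arrays.

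In the myeloid lines 0 of 5 members tested were called in J365 against M0 (1.47% of all genes were called), with 2 of them, Ctf1 and Il6, at an unadjusted p under 0.05. In M against M0 the 4 members tested, Il6st, Lif, Il6 and Osm, were all called, where 58.5% of all genes tested were called. Each of these passed the filter by being bright in 1 of the 2 cell types, so their count has no weight of its own. The difference between the models, D minus M against J365 minus M0, was called for 0 of 5 members other than Ctf1 (2.07% of all genes), with 0 at an unadjusted p under 0.05. For Ctf1 the 2 differences were 5.73 and 0.35, the first of them the value it was picked for. Lifr was called in this contrast when replicate 1 of D was left out.

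The rest of the pathway was followed in 42 further genes. Beside the ligands and receptors, these comprised kinases, STAT factors and adaptors, inhibitors, and genes known to respond to the pathway. Their medians stayed near those of all genes: -0.06 against -0.01 on the log2 scale in D against M (35 tested), -0.04 against 0.04 in DB#1 (35), -0.02 against 0.02 in DB#2 (37) and 0.03 against 0.03 in DB#3 (36). Of the 143 tests against M, 6 were called, near the share of all genes (2.76% to 3.69% in the 4 comparisons): Myc and Bcl3 were higher and Stat5b lower.

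Among the responding genes Myc, a driver of growth, rose against M in 3 dormant lines. It read 1.54, 1.12 and 1.29 in M and 2.48, 2.67, 2.01 and 2.25 in D. The log2 difference was 1.04 ± 0.22 in D (limma, adjusted p 0.0106), 0.95 ± 0.23 in DB#1 (0.0163) and 0.93 ± 0.24 in DB#3 (0.0376), and every array of these lines lay above every M array. All 3 calls were lost without M replicate 2 (adjusted p 0.0786, 0.112 and 0.191) and without M replicate 3 (0.0594, 0.0776 and 0.139), and that of DB#3 also without M replicate 1 (0.0534). Those of D and DB#1 were lost with only the arrays compared (0.126 and 0.0518). With no filter those of DB#1 and DB#3 were lost (0.0607 and 0.134). That of DB#1 was lost without DB#1 replicate 1 or 3 (0.0604 and 0.0682). Without any single DB#3 array that of DB#3 was lost (0.0545 to 0.177), as it was without M0 replicate 2 (0.0503). Stat5b, a STAT factor, fell by 0.60 ± 0.13 in D (adjusted p 0.0125) and by 0.49 ± 0.13 in DB#1 (adjusted p 0.0413), and both calls were lost without M replicate 1 (0.111 and 0.222). That of DB#1 held in only 16 of 35 alternatives, and was lost without any single array of M or DB#1 (adjusted p 0.0557 to 0.222).

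In DB#2, the dormant line with the least Ctf1, the pathway gene called against M was Bcl3. Bcl3, an IκB family member and known STAT3 target, read -0.18, 0.34 and 0.70 in DB#2 against -2.31, -2.30 and -2.32 in M, a rise of 2.59 ± 0.53 (limma, adjusted p 0.00491). It also rose against D (2.85 ± 0.49, adjusted p 0.000761), DB#1 (2.28 ± 0.49, adjusted p 0.00692) and DB#3 (2.43 ± 0.53, adjusted p 0.0075). Without DB#2 replicate 3 the calls against DB#1 and DB#3 were lost (adjusted p 0.0518 and 0.0512), and with only the arrays of both lines that against D was lost (adjusted p 0.125). D replicate 3, at -0.46, was the only other melanoma array near the DB#2 level, with the remaining D arrays at -3.37 to -3.13.

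Cntfr, the receptor subunit for ciliary neurotrophic factor that works with gp130 and Lifr, was 1.57 ± 0.31 higher in DB#2 than in D (limma, adjusted p 0.00273). Its values were 3.21, 3.52 and 3.76 in DB#2 and 1.39, 2.14, 1.73 and 2.46 in D. Stat5b (0.56 ± 0.13, limma, adjusted p 0.0121) and Il11ra1, the interleukin 11 receptor subunit (0.82 ± 0.19, adjusted p 0.01, named after its values were seen) were also higher in DB#2 than in D. The Stat5b call held in 30 of 35 alternatives. It was lost without scaling (adjusted p 0.0752), with no filter (0.068) and without DB#2 replicate 1 (0.0681) or 3 (0.065). With only the arrays of both lines it was lost as well (0.354), as was that of Il11ra1. Against D, 5 of 37 tested were higher and 0 lower in DB#2, a share of 13.5%, where 6.34% of all genes were called. In DB#1 0 of 35 were called (0.475% of all genes) and in DB#3 0 of 36 (0.369%). The pathway calls thus fell in the line with the most calls over all genes, at a larger share than that of all genes. The difference between these shares was not tested. In all, limma gave 17 of the 108 tests against D and 3 of the 34 in J365 against M0 an unadjusted p under 0.05, and in J365 against M0 0 were called. Of the 6 inhibitors, SOCS genes among them, 0 were called by limma in any comparison between melanoma lines, with 1 at an unadjusted p under 0.05 in D against M and 1 in DB#1 against M.

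**Figure D4:**
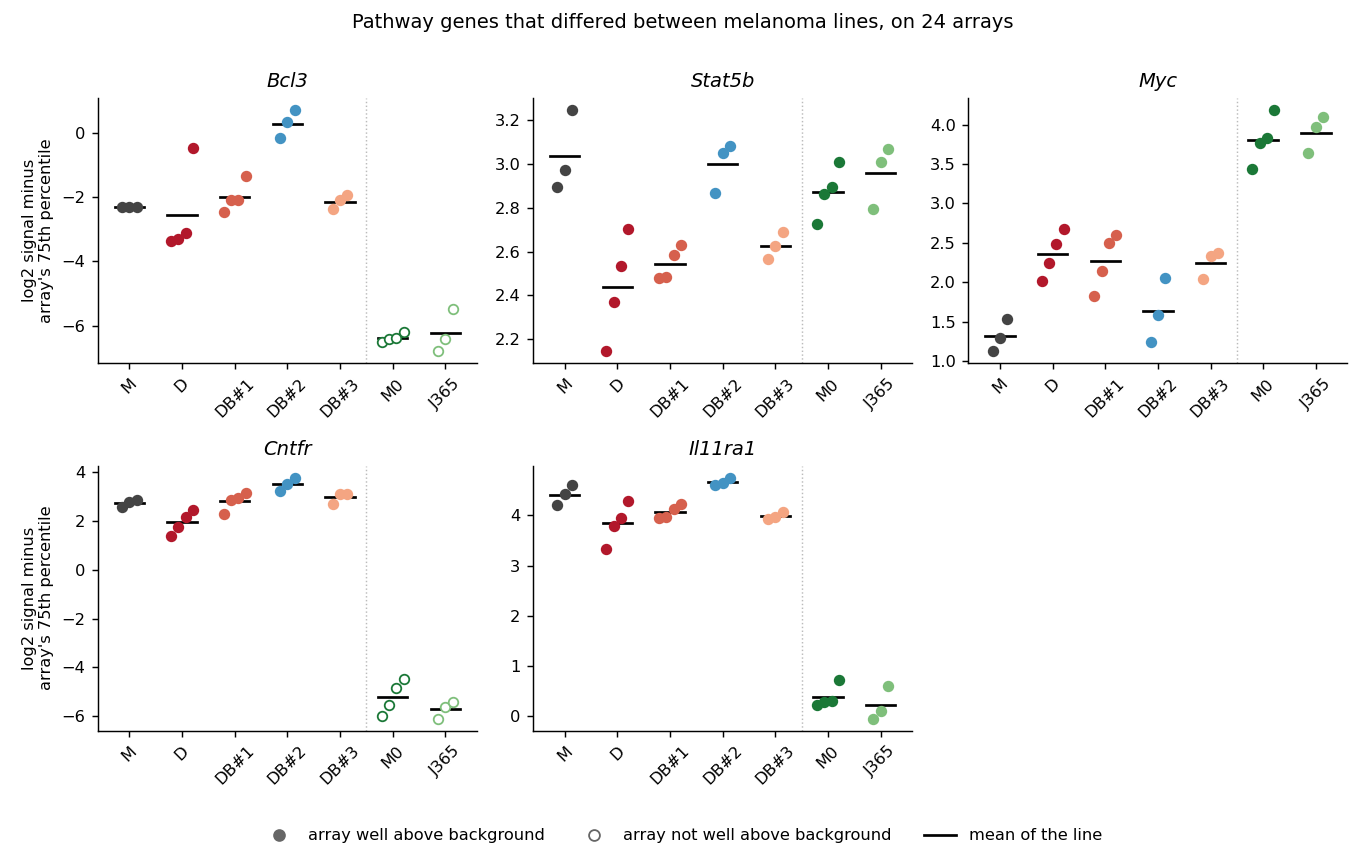
Normalized log2 signal (intensity less the array's 75th percentile) of Bcl3, Stat5b, Myc, Cntfr and Il11ra1, by line, with 1 point per array, filled where well above background, and bars for means of 3 or 4 arrays. DB#2 stood highest of the dormant lines for Bcl3 (-0.18 to 0.70), and M had the lowest mean of Myc (arrays at 1.12 to 1.54). Bcl3 and Cntfr are open on all 7 myeloid arrays.

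M and M0 differed in 29 of the 38 pathway genes tested, 9 of them higher and 20 lower in M, where 58.5% of all genes were called, with a median of -0.86 against -0.13 for all genes. By role, 3 of 4 receptors were higher in M, 5 of 6 inhibitors were lower, and of 14 responding genes 3 were higher and 9 lower. Cntfr was above background on all 17 melanoma arrays and on none of the 7 myeloid arrays, and Il11ra1 was 4.02 ± 0.19 higher in M (limma, adjusted p 1.45e-13). These receptor subunits thus had their higher signal in the melanoma line, as Il6st did, and Il6, Osm and Lif in the myeloid line.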

How the data were processed

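RNA of 24 cell line samples was hybridised by the authors to one-colour 8x60K Agilent arrays (cyanine 3) and read with Agilent Feature Extraction 10.7.3.1. The deposited intensity (gProcessedSignal) is background-corrected by that software and not scaled between arrays; the value table that goes with the arrays holds the same 1511424 values. From it, control and outlier spots were left out, spots of one probe averaged, and log2 intensity less the 75th percentile of each array computed. Of 56605 probes 56488 were kept. A gene was represented by its probe of highest mean signal; probes were named through RefSeq. One limma model (3.58.1, R 4.3.3; lmFit, eBayes) with a term per line and 17 residual degrees of freedom gave all comparisons, adjusted by Benjamini-Hochberg over all genes tested and called under 0.05. A gene was tested where its probe was well above background on every array of at least 1 line compared. Fold bounds used means over replicates. The code was tested on simulated data. Promoter motifs were searched in the 250 bases before RefSeq starts (GRCm38.p6).

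Alternatives were quantile scaling, scaling on detected probes, no scaling, normexp background correction, other filters, slide and replicate number as blocks, the mean of a gene's probes, only the arrays compared, and leaving out each array. The planned normexp on mean signals could not be run, as the files used hold median signals, which took its place; this and leaving out D replicates 1 and 3 together were chosen after seeing the data. The members and gene lists were chosen with earlier results of these data known. Pathway genes named are the 3 with the largest changes among those called in each family of comparisons; Il11ra1 was added later, and 1 item is counted but not reported here by name. Array number limits the precision.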

Additional observations from a re-analysis of the deposited data

How the results depend on the processing

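Ctf1 kept its calls in DB#2 against DB#1 and against DB#3 under all 35 alternatives run, at -1.79 and -1.80 with normexp. Its measured difference between D and M was 2.15 with normexp (offset 50), and 5.61 to 5.80 with single arrays left out. Member calls against M fell from 3 to 0 with the stricter filter, as did those of M against M0 from 4. That filter asks for a probe well above background on every array of all lines compared. The members called were therefore not tested under it, and their loss was fixed in advance. Against D, 0 members were called, but 1 with quantile scaling, scaling on detected probes, no scaling, the mean of probes, or neither of D replicates 1 and 3, and 2 with slide as a block; with single arrays left out the count was 0 to 2, with 1 without D replicate 3 or J365 replicate 4 (Il6st) and 2 without M replicate 3 (Lifr). Among the DB lines 2 became 6 with slide as a block and 2 to 4 with single arrays left out (4 without M replicate 3). In J365 against M0, 0 became 1 with quantile scaling (Il6, adjusted p 0.0432). The difference between models went from 0 to 1 (Lifr) with no filter, without D replicate 1 (0 to 1 over all arrays left out), or with neither of D replicates 1 and 3.

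Pathway calls against M (6) were 2 with no filter, 11 with slide as a block, 3 with only the arrays compared and 2 to 7 with single arrays left out (3, 2 and 2 without M replicates 1, 2 and 3). Against D (5) they were 10 with slide as a block, 2 with only the arrays compared and 4 to 8 with single arrays left out (8 without D replicate 1). Among the DB lines (4) they were 9 with quantile scaling, scaling on detected probes or none, 7 with normexp or only the arrays compared, 10 with slide as a block, 8 with neither of D replicates 1 and 3, and 2 to 7 with single arrays left out (7 without D replicate 1 or 3, 2 without DB#2 replicate 3). In J365 against M0 (0) they were 1 with quantile scaling, scaling on detected probes, no scaling, normexp or neither of D replicates 1 and 3, 3 with slide as a block and 0 to 1 with single arrays left out. The cause of these shifts was not tested.

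Signs turned only for differences near 0: Il6st with the mean of probes in D (-0.12), DB#1 (-0.28) and DB#3 (-0.077) against M, in DB#1 also with scaling on detected probes (-0.050), and with single arrays left out from -0.078 to 0.071 in DB#1 and -0.045 to 0.19 in DB#3; and Ctf1 in DB#3 against DB#1 without scaling (-0.0595) and from -0.0585 to 0.16 with single arrays left out. Without scaling the median of all genes in D against M went from -0.01 to 0.17.

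Over 27 same-numbered pairs the correlation of deviations ran from -0.80 to 0.91. All 3 pairs were above 0.1 in DB#1 against M (0.57 to 0.91), where Lifr kept its call with the block; in each other comparison with 3 or more pairs at least 1 was below. With replicate number as a block, member calls stayed at 3 against M, 0 against D, 2 among the DB lines and 4 in M against M0, and pathway calls were 8, 6, 4 and 30. Bcl3 in DB#2 against DB#3 lost its call in that fit (2.38, adjusted p 0.12). Signal over background limits what was seen of Il11, Clcf1 and Osmr, and of Ctf1 and Lifr in M.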
